A study of Salmo salar with 60 samples.

Results

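Atlantic salmon that had eaten soybean meal for 7 days were compared with fish of the same stock sampled before the change of diet. Members were chosen by their sample titles: 10 fish of day 7 and 9 fish of day 0, together 19 of the 60 arrays of the study. All fish were of the Sunndalsøra breed, were held in running seawater and had first been adapted for 7 days to a fishmeal diet, in which 563 g per kg of fishmeal was the sole protein source. The day 7 fish, 5 from each of 2 tanks, had then eaten a diet in which 200 g per kg of defatted soybean meal replaced part of the fishmeal, with lipid and crude protein matched between diets at 28% and 43%. The day 0 fish, 4 of tank 1 and 5 of tank 2, had eaten no soybean meal. Only fish with gut content along the whole intestine were taken, per the labels' protocols, and each array holds the RNA of 1 fish. Cy5-labelled RNA of the distal intestine was hybridised against one pool, labelled with Cy3 and made from 18 fish, 3 of each sampling day, which was the same on every array. A value is therefore a log2 ratio of one fish to that pool, and a difference between days is a difference of such ratios. The 40 fish of days 1, 2, 3 and 5 enter the estimate of the spread between fish of a day, and some of their values are given for comparison.

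The distal intestine of salmonids absorbs macromolecules and holds many immune cells. Soybean meal is known to cause enteritis there: the mucosal folds shorten, absorptive vacuoles disappear from the enterocytes and leukocytes enter the lamina propria, and the condition recedes once soybean is withdrawn. Saponins of the bean are among its known causes. Probes are known here only by array column and row (as in C161R163), so genes, pathways and cell type markers are not analysed here, and the tissue label was not checked against marker genes. In a piece of whole tissue, fewer cells of a type and less RNA per cell cannot be told apart.

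Of 43627 probes tested, 16473 (37.8%) were bright, with a median background-corrected Cy5 signal of 200 or more over the 19 arrays, and 27154 (62.2%) were dim. The bright probe nearest the limit lay at 200 and the dim one at 199.5. The median Cy5 signal of an array was 76.6 ± 9.41 on day 7 (SD, n = 10) and 73.4 ± 14.3 on day 0 (n = 9) (exact two-sided permutation test, p = 0.568). The Cy3 signal of the pool was 70.6 ± 9.72 on the day 7 arrays and 76.3 ± 5.90 on the day 0 arrays (exact permutation p = 0.149, 0.448 after Benjamini-Hochberg adjustment over 3 values). With 10 and 9 arrays, precision is limited by their number.

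4 fish stood apart from the other 15 over the bright probes, 2 on each day. More than any other axis, the first principal component separated them: it took up 54.6% of the variation among the 19 arrays. Replicates 2 and 7 of day 7 scored -93.4 and -95.0 on it, and the other 8 day 7 fish lay between 17.3 and 40.4. On day 0, replicates 7 and 2 scored -84.8 and -61.6 and replicate 1 scored -26.5, while the other 6 fish lay between 19.2 and 30.3. For the difference in mean score between days, the exact permutation p was 0.743. In replicates 2 and 7 of day 7, 3338 and 3572 bright probes were more than 2-fold away from the median day 7 fish, against 139 to 395 in the other day 7 fish. In replicates 7 and 2 of day 0 there were 2715 and 1622 such probes, in replicate 1 there were 725, and in the others 172 to 343. Results are therefore given with and without these 4 arrays, whose place on the component was known when they were listed.

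**Figure D1:**
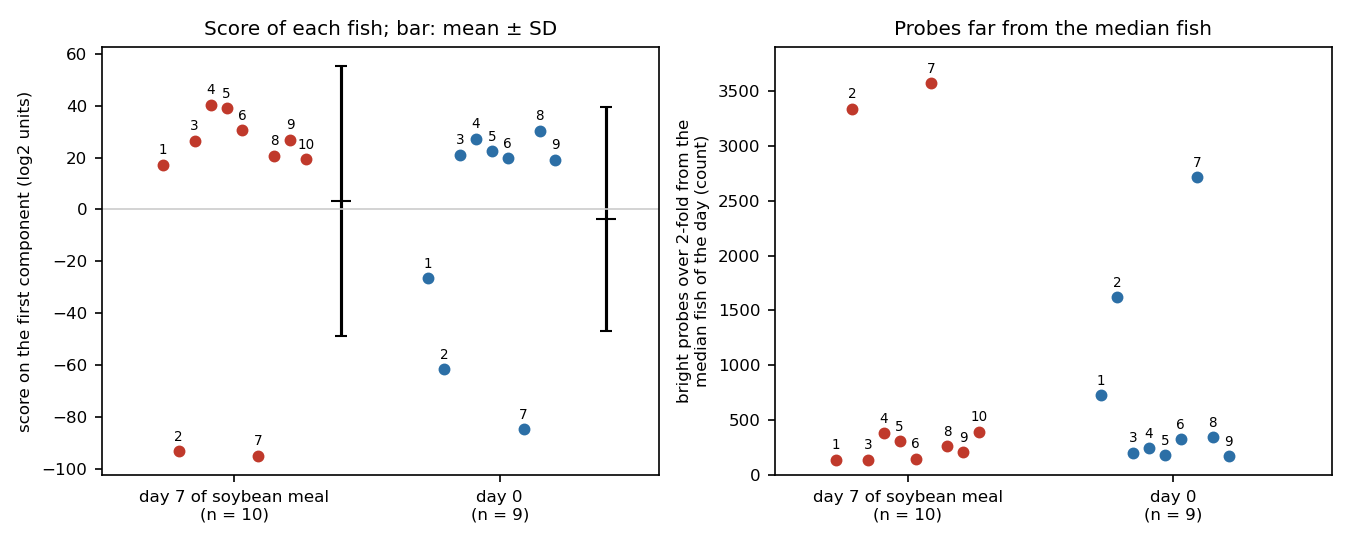
Score of each fish on the first principal component of the bright probes (left, log2 units) and number of bright probes more than 2-fold from the median fish of its day (right); each point is 1 fish, day 7 stands left of day 0 and bars in the left panel give mean ± SD. Replicates 2 and 7 of each day have the lowest scores, from -95.0 to -61.6, and the highest counts.

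The mean level of every probe was then compared between days, which asks how the tissue differed after 7 days of soybean meal. The groups differ in sampling day as well as in diet, and no fish kept on fishmeal until day 7 were analysed here, so diet and time cannot be told apart. No probe passed. With limma, 0 of 43627 probes (0%) reached an adjusted p of 0.05, and the smallest adjusted p was 1.00. Before adjustment, 1260 probes were below 0.05 in limma, 2.89% of all tested. Among bright probes this was 199 (1.21%), with 112 higher on day 7 (0.68%) and 87 lower (0.528%). Among dim probes it was 1061 (3.91%), with 558 higher (2.05%) and 503 lower (1.85%). Probe by probe, the exact Wilcoxon rank sum test also called 0, with 1219 of 43627 probes below 0.05 before adjustment. There was no probe on which all 10 day 7 fish lay above all 9 day 0 fish (0%), and none on which all lay below (0%).

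The bright count, 199 of 16473 in the main fit, depended on single fish and on how arrays were scaled. The counts that follow are also out of 16473 bright probes. None reaches a share of 0.05, which an unadjusted p under 0.05 gives on average where no probe differs. Among day 7 fish, leaving out replicate 2 gave 365 and leaving out replicate 7 gave 411. On the day 0 side, leaving out replicate 4 gave 336. Leaving out the 4 arrays that stood apart gave 335. In each of these fits limma again called 0 probes. When arrays were centred on their median instead of being normalised by loess, 415 bright probes had an unadjusted p under 0.05 and 409 of them were higher on day 7. Under that scaling the median bright probe lay 0.09 log2 units higher on day 7 and the median dim probe differed by -0.02, whereas with loess these medians were -0.00102 and 0.00153.

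Most estimated differences were small. The median absolute difference between days was 0.0862 log2 units for bright probes and 0.0909 for dim ones. Among bright probes, 45 were estimated more than 1.5-fold higher on day 7 and 16 more than 1.5-fold lower, and 5 were more than 2-fold higher and 0 more than 2-fold lower. Among dim probes, 9 were more than 1.5-fold higher and 11 lower. Without the 4 arrays, 84 bright probes were more than 1.5-fold higher and 22 lower.

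The width of the intervals sets which sizes of difference these arrays can bound. The 95% confidence interval of the difference lay wholly within 2-fold in either direction for 95.8% of bright probes and within 1.5-fold for 77.6%. Its median half-width was 0.326 log2 units. The dim shares, 99.6% and 93.4%, are no bound on loss of RNA, because 50 was added to both channels and for 43.9% of all probes a complete loss of signal would then stay below 2-fold. Within the bright probes the estimate was not sharper at higher signal: the interval lay within 1.5-fold for 77.3% of probes from 200 to 1000, 78.7% from 1000 to 10000 and 74.5% of those at 10000 or more. In the class at 10000 or more, 33.6% of Cy5 readings carried the deposited flag code 3, against 0.177% from 200 to 1000. This code has no key in the files, and its median Cy5 signal was 40516.5, where the highest recorded was 65441. Where the scale limits the ratios, these intervals are no firm bound.

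**Figure D2:**
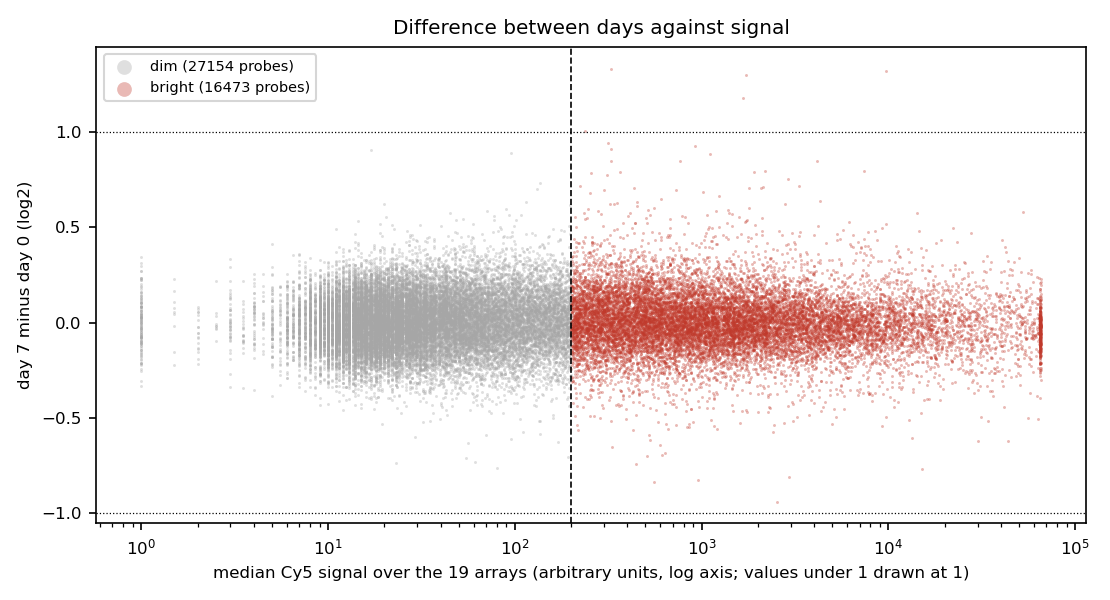
Estimated difference, day 7 minus day 0 in log2 units, against the median Cy5 signal on a log axis; each point is 1 probe, and bright and dim probes are marked apart. Most probes lie close to 0 at every signal, and the few beyond 1 on the log2 scale are bright and higher on day 7.

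The 8 bright probes with the largest positive difference and the 8 with the largest negative difference are described next; they were picked for that size, so their unadjusted p-values are descriptive and every limma adjusted p was 1.00. The 8 higher probes ranged from 1.88-fold to 2.52-fold, and 5 of them had an unadjusted p under 0.05. The 8 lower probes ranged from 1.62-fold to 1.92-fold, and 0 had an unadjusted p under 0.05. In each set 7 of 8 probes differed in the same direction in both tanks. All 8 and 8 kept their direction in the authors' deposited value table, under median centring and without the 4 arrays. Because the probes were picked from these same arrays, agreement in direction between tanks or settings is descriptive and no independent support.

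On C161R163, the log2 ratio ran from -2.08 over a median of 0.31 to 2.25 on day 7, and from -2.47 over -0.64 to -0.20 on day 0. The difference was 1.33 (SE 0.56, unadjusted p = 0.0205, adjusted p = 1.00). All 9 day 0 fish were below the pool. 6 day 7 fish lay above every one of them, replicates 3, 5, 6, 8 and 10 at 0.69 or higher and replicate 4 at -0.08, and the other 4 lay within the range of day 0. It was higher on day 7 in tank 1 (1.83) and in tank 2 (0.88), and in all 3 pairs of a day 7 and a day 0 array on the same slide. Its mean ratio on days 1, 2, 3 and 5 was 0.03, -0.14, -0.51 and -0.87.

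On C197R161, day 7 fish ran from -2.80 over 0.04 to 1.07, and day 0 fish from -2.44 over -1.91 to 0.34. The difference was 1.30 (SE 0.56, p = 0.0229, adjusted p = 1.00). 8 of 9 day 0 fish were at -0.94 or lower, the exception being replicate 2 of day 0, and 4 of 10 day 7 fish were down there with them. Without the 4 arrays the difference was 1.78.

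C136R102, the brightest of the higher probes with a median Cy5 signal of 9650.5, ran from -2.91 over 0.96 to 2.06 on day 7 and from -5.79 over 0.36 to 1.64 on day 0. The difference of 1.32 (SE 0.88, p = 0.139, adjusted p = 1.00) rested largely on replicates 2 and 7 of day 0, at -5.79 and -5.59, which lay 2.68 below every other fish. Both are among the 4 arrays that stood apart, and without those 4 the difference was 0.72. That setting also leaves out the low replicates 2 and 7 of day 7, at -2.34 and -2.91. It is therefore not the difference that remains without the 2 day 0 fish alone. Apart from replicates 2 and 7 of day 0, the days overlapped almost fully.

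C142R026 and C084R001 each split the fish into a high and a low set on both days. On C142R026, 4 of 10 day 7 fish and 5 of 9 day 0 fish lay below a gap of 1.95 log2 units, and the difference was 1.18 (SE 0.75, p = 0.123, adjusted p = 1.00). On C084R001, 3 of 10 day 7 fish and 5 of 9 day 0 fish lay below a gap of 2.39, and the difference was 0.93 (SE 0.93, p = 0.323, adjusted p = 1.00). The same 5 day 0 fish, replicates 1, 2, 4, 5 and 7, were low on both probes. On day 7 replicates 1 and 4 were low on both, replicates 2 and 7 on C142R026 only and replicate 8 on C084R001 only. Over the 19 fish the 2 probes correlated at 0.739, or 0.724 after removal of the day means, as a description of arrays that share the pool. Without the 4 arrays the difference on C084R001 was 0.18, and in tank 1 alone it was -0.25.

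C058R098 and C092R135 had nearly the same profile, with a correlation of 0.990 over the 19 fish and 0.988 within days. C058R098 ran from -0.66 over 0.31 to 1.76 on day 7 and from -1.67 over -0.90 to 1.39 on day 0, a difference of 0.91 (SE 0.36, p = 0.0144, adjusted p = 1.00). C092R135 ran from -0.77 over 0.46 to 1.70 on day 7 and from -1.76 over -0.80 to 1.57 on day 0, a difference of 0.95 (SE 0.38, p = 0.0145, adjusted p = 1.00). On both probes the highest fish were replicates 2, 4, 5 and 9 of day 7 and replicate 5 of day 0, and the days overlapped over most of their range. Without the 4 arrays the differences were 0.60 and 0.64. C103R050, the last of the 8, differed by 1.01 (SE 0.49, p = 0.0435, adjusted p = 1.00). Its day 7 fish ran from -2.29 to 1.92 and its day 0 fish from -2.69 to 0.36, so that 5 day 7 fish (replicates 2, 4, 7, 9 and 10) but only 1 day 0 fish were above 0.

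**Figure D3:**
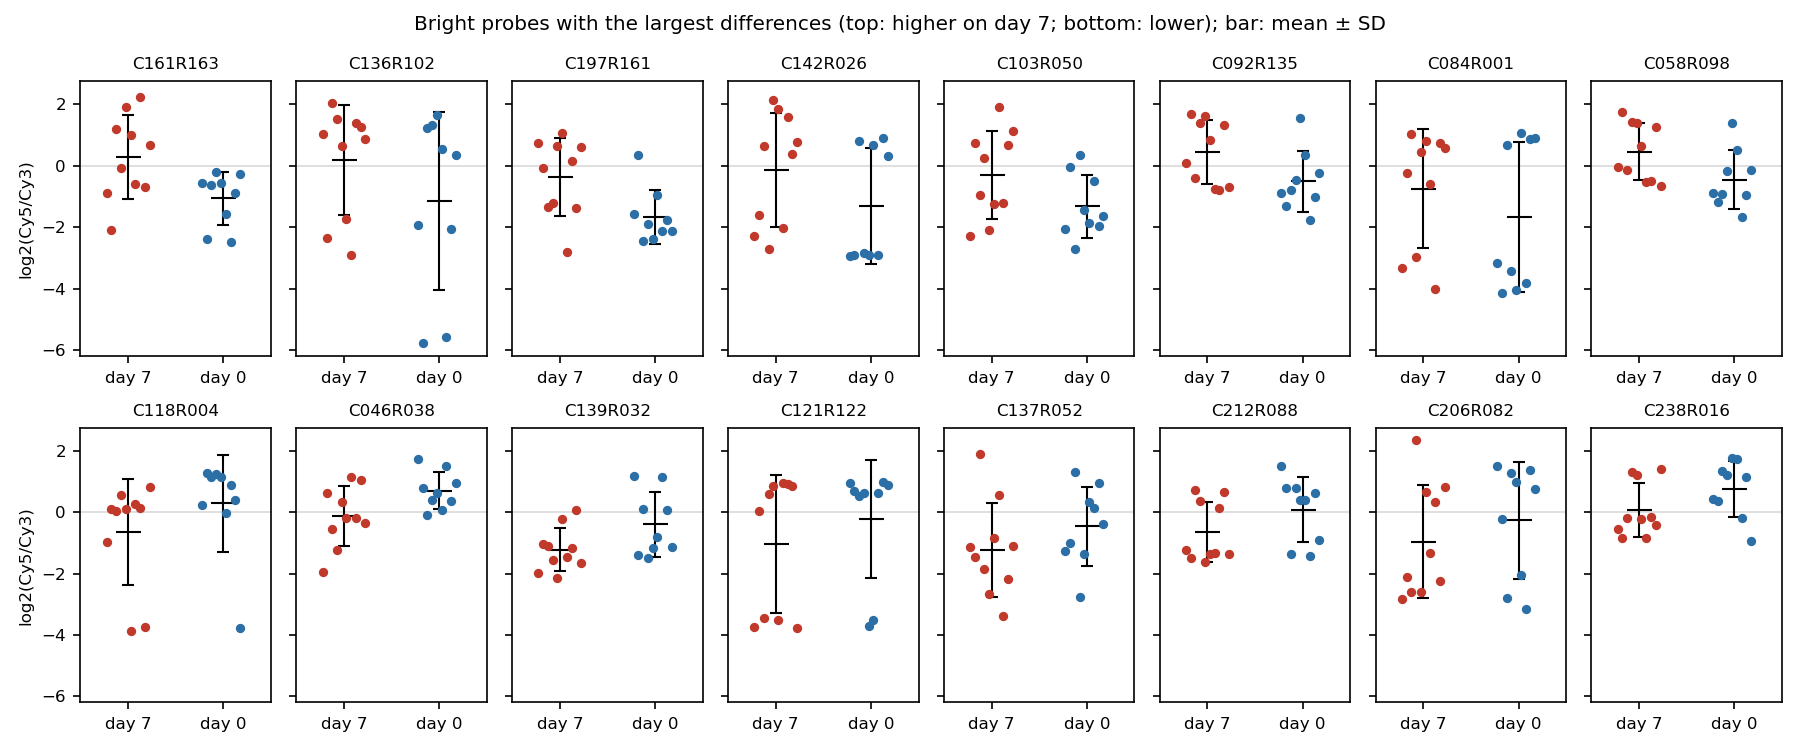
Log2 ratio to the pool of each fish on the 8 bright probes with the largest positive and the 8 with the largest negative difference, with day 7 left of day 0 for each probe; each point is 1 fish and bars give mean ± SD. On every probe the fish of both days overlap, and on C121R122, C142R026 and C084R001 they form a high and a low set on each day.

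Among the lower probes the largest difference was on C118R004, -0.94 (SE 0.81, p = 0.25, adjusted p = 1.00). It ran from -3.85 over 0.11 to 0.81 on day 7 and from -3.77 over 0.89 to 1.29 on day 0. Replicates 6 and 9 of day 7 and replicate 9 of day 0 lay 2.77 below all others. Among the remaining fish, 5 of the day 0 fish were higher than every day 7 fish.

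C121R122 showed the widest gap of the 16 probes, 3.50 log2 units. 4 day 7 fish (replicates 1, 3, 6 and 10) and 2 day 0 fish (replicates 5 and 6) were at -3.44 or lower, and the other 13 were at 0.05 or higher. The difference of -0.81 (SE 0.98, p = 0.414, adjusted p = 1.00) goes with the number of low fish, 4 of 10 on day 7 and 2 of 9 on day 0. Its mean ratio on days 1, 2, 3 and 5 was -1.26, -0.55, -2.46 and -0.96, each further from 0 than the day 0 mean of -0.21.

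C046R038 came nearest to an unadjusted p of 0.05 among the lower probes, with a difference of -0.83 (SE 0.43, p = 0.0556, adjusted p = 1.00). It ran from -1.94 over -0.18 to 1.16 on day 7 and from -0.10 over 0.63 to 1.73 on day 0. 6 day 7 fish were lower than every day 0 fish. C139R032 also differed by -0.83 (SE 0.48, p = 0.0908, adjusted p = 1.00), with replicates 1 and 7 of day 0 at 1.17 and 1.14, above all other fish by a gap of 1.05, and day 7 between -2.14 and 0.06.

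C137R052 was the brightest of the lower probes, with a median Cy5 signal of 15206.5, and differed by -0.77 (SE 0.64, p = 0.235, adjusted p = 1.00). Its difference was -1.64 in tank 1 and -0.03 in tank 2, and the test between tanks gave an unadjusted p of 0.22. On this probe 5 of 19 arrays carried flag code 3. Its highest fish, replicate 3 of day 7, read 65139 in Cy5, where the highest signal recorded was 65441. The scale may therefore limit its ratios. C212R088 and C206R082 each had 6 of 10 day 7 fish and 3 of 9 day 0 fish in a low set, below gaps of 1.03 and 1.10. They differed by -0.74 and -0.70, and on C206R082 the direction was opposite in tank 1 alone (0.42). C238R016 differed by -0.70 (SE 0.40, p = 0.0899, adjusted p = 1.00), with 7 day 7 and 4 day 0 fish below a gap of 0.70.

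The 3 brightest probes, C182R023, C255R007 and C200R057, were near the top of the recorded signal. Their median Cy5 signals were 65288, 65254.5 and 65252, where the highest signal recorded on the 19 arrays was 65441, so the scale limits their ratios. Their differences were -0.12, -0.04 and -0.06, with SEs of 0.12, 0.11 and 0.11. No day stood apart on any of them, and each was above 0 in tank 2 alone. Of all probes, 169 carried the deposited flag code 3 on all 19 arrays; this code has no key in the files, and its spots had a median Cy5 signal of 40516.5.

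Among dim probes the largest difference came from 1 array. C263R064, with a median Cy5 signal of 17, differed by 0.91 (SE 0.45, p = 0.0486, adjusted p = 1.00), because replicate 1 of day 0 was at -7.72 while all other fish of both days were at -0.28 or higher. On that array the pool channel read 13068.5 and the fish channel 9. C017R053 differed by 0.89 (SE 0.38, p = 0.0208, adjusted p = 1.00): its 9 day 0 fish lay between -1.55 and -0.43, and its day 7 fish between -1.89 and 1.19, 6 of them above every day 0 fish. C159R163 differed by -0.74 (SE 0.18, p = 0.00018, adjusted p = 1.00) at a median signal of 23, and by -4.32 when no offset was added. In that setting signals under 1 were set to 1, and the pool channel of this probe read -20 to 78.5 on the day 0 arrays. The -4.32 therefore rests in part on floored signals and is no measure of a fall in the fish. C148R168 differed by -0.76 (SE 0.62, unadjusted p = 0.222 in limma) at a median signal of 80.5. Replicates 1, 2 and 7 of day 0 were at 2.35, 0.91 and 1.27, above every other fish of both days. On these arrays its fish channel read 2303.5, 1621.5 and 2345. Without the 4 arrays that stood apart the difference was -0.53.

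Among dim probes the one with the smallest p, and among bright probes the one with the smallest p in each direction, were looked up after their values were seen. The dim probe C137R048 had a median Cy5 signal of 35 on day 7 and 40.5 on day 0. Its pool channel read 9 to 55.5 on the day 7 arrays and 10.5 to 26 on the day 0 arrays. Its log2 ratios ran from -0.41 over -0.17 to 0.27 on day 7 and from -0.33 over 0.49 to 0.92 on day 0. The difference was -0.52 (SE 0.12, p = 5.49e-05, adjusted p = 1.00). The adjusted p was 0.0603 without the 4 arrays, 0.0704 without replicate 2 of day 0, 0.0744 with array quality weights and 0.271 without replicate 1 of day 0, in limma each time, so it passed in none of these. On the bright probe C109R052, day 7 fish ran from 0.01 over 0.68 to 0.93 and day 0 fish from -0.37 over 0.09 to 0.32. The difference was 0.53 (SE 0.14, p = 0.000406, adjusted p = 1.00). Its median Cy5 signal was 388.5 on day 7 and 338 on day 0. Its pool channel read 127.5 to 292.5 on the day 7 arrays and 174 to 377.5 on the day 0 arrays. On the bright probe C213R081, day 7 fish ran from -0.45 over -0.23 to 0.32 and day 0 fish from 0.06 over 0.16 to 0.51. The difference was -0.37 (SE 0.10, p = 0.000403, adjusted p = 1.00). Its median Cy5 signal before normalization was 216.75 on day 7 and 202.5 on day 0, the reverse of the ratio. Its pool channel read 119 to 307 on the day 7 arrays and 126 to 249.5 on the day 0 arrays. All 3 differed in the same direction in both tanks and in the 3 pairs of arrays that shared a slide. They were picked for their p on these same arrays, so this agreement is no independent support. How much of each difference lies in the pool channel was not tested.

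The spread between fish was compared next. Among bright probes the SD of a probe between fish had a median of 0.372 log2 units on day 7 and 0.344 on day 0, and it was larger on day 7 for 60.8% of probes. Without the 4 arrays this direction was not kept. The medians were then 0.267 on day 7 and 0.275 on day 0, and the SD was larger on day 7 for 47.3%. Replicate 1 of day 0, the next lowest on the first component, was kept there, and its part in this was not tested. Bright probes with an SD above 1 numbered 737 on day 7 and 503 on day 0, of which 375 were shared (50.9% of the day 7 list and 74.6% of the day 0 list), and without the 4 arrays 115 on day 7 and 175 on day 0. Among dim probes the SDs were 0.293 on day 7 and 0.291 on day 0.

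**Figure D4:**
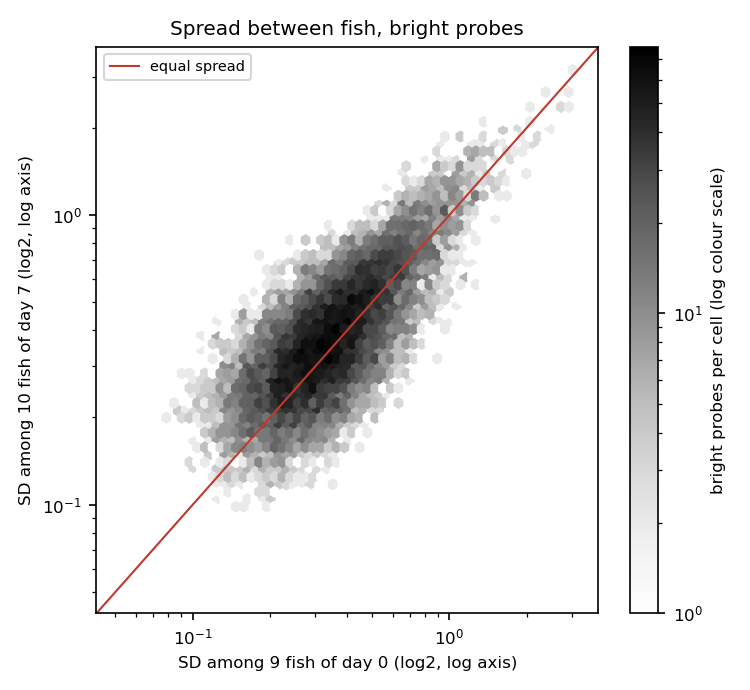
SD between fish of each bright probe on day 7 against that on day 0, in log2 units, on log axes, with the line of equal spread; the shade of a cell gives the number of probes. With all 19 arrays, 60.8% of the probes lie above the line, on the side of larger spread on day 7.

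A test of the spread (absolute deviations from the day mean, fitted with limma) called 0 probes (0%), with a smallest adjusted p of 0.270. Before adjustment 2601 were below 0.05 (5.96%), 1381 with a larger spread on day 7 (3.17%) and 1220 with a smaller one (2.8%). Of these, 1017 were bright (6.17%), 609 larger on day 7 (3.7%) and 408 smaller (2.48%). The dim ones numbered 1584 (5.83%), with 772 larger (2.84%) and 812 smaller (2.99%). Without the 4 arrays 679 of 16473 bright probes were below 0.05 before adjustment, and 262 of the 679 had a larger spread on day 7. With deviations from the day median, 1262 of 43627 probes were below 0.05 before adjustment, a share under 0.05.

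Single bright probes with unequal spread were mostly probes on which a few arrays deviated. C219R077 had an SD of 0.87 on day 7 and 0.17 on day 0 (ratio 5.16), with replicates 1 and 8 of day 7 at -1.36 or lower and every other fish at -0.11 or higher. C198R003 had SDs of 0.53 on day 7 and 0.11 on day 0, and C254R161 had 0.62 on day 7 and 0.15 on day 0; on both, replicates 2 and 7 of day 7 were at one end. With the 4 arrays left out these SDs were 0.26 on day 7 and 0.12 on day 0 for C198R003, and 0.36 on day 7 and 0.14 on day 0 for C254R161. In the other direction, C238R117 had 0.20 on day 7 and 0.98 on day 0 through replicate 8 of day 0 alone, at -2.60. On that array the pool channel read 3165, against 312.5 to 557 on the other day 0 arrays. The fish channel read 428.5, within the range of the other day 0 fish. On C120R012, replicates 3 and 8 of day 0 were at 1.84 and 1.87 and all other fish at -0.15 or lower, giving SDs of 0.21 on day 7 and 1.04 on day 0. C093R157 had 0.18 on day 7 and 0.69 on day 0, with 4 day 0 fish between -1.39 and -0.45 and 5 between 0.12 and 0.70, while day 7 fish stayed between -0.56 and 0.01.

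Fish of one day were about as far from each other as from fish of the other day. The mean distance between 2 fish, the root mean square difference over bright probes, was 0.686 log2 units within day 7 and 0.646 within day 0, and 0.648 between the days. Within-day distance was larger on day 7 by 0.0404 (exact two-sided permutation test over 92378 splits, p = 0.766). Without the 4 arrays it was 0.486 within day 7 and 0.514 within day 0, a difference of -0.0285 (exact permutation p = 0.758). Replicate 1 of day 0, at -26.5 on the first component, was kept in that set. It lay 0.536 to 0.686 from the remaining day 0 fish, which lay 0.413 to 0.532 from each other. Keeping this fish therefore raises the mean distance within day 0, so the -0.0285 is no measure of a smaller spread on day 7. The mean distance within day 0 without this fish as well was not computed. The nearest fish was of the same day for 11 of 19 fish. Of the 4 arrays that stood apart, 3 were nearest to another of the 4.

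**Figure D5:**
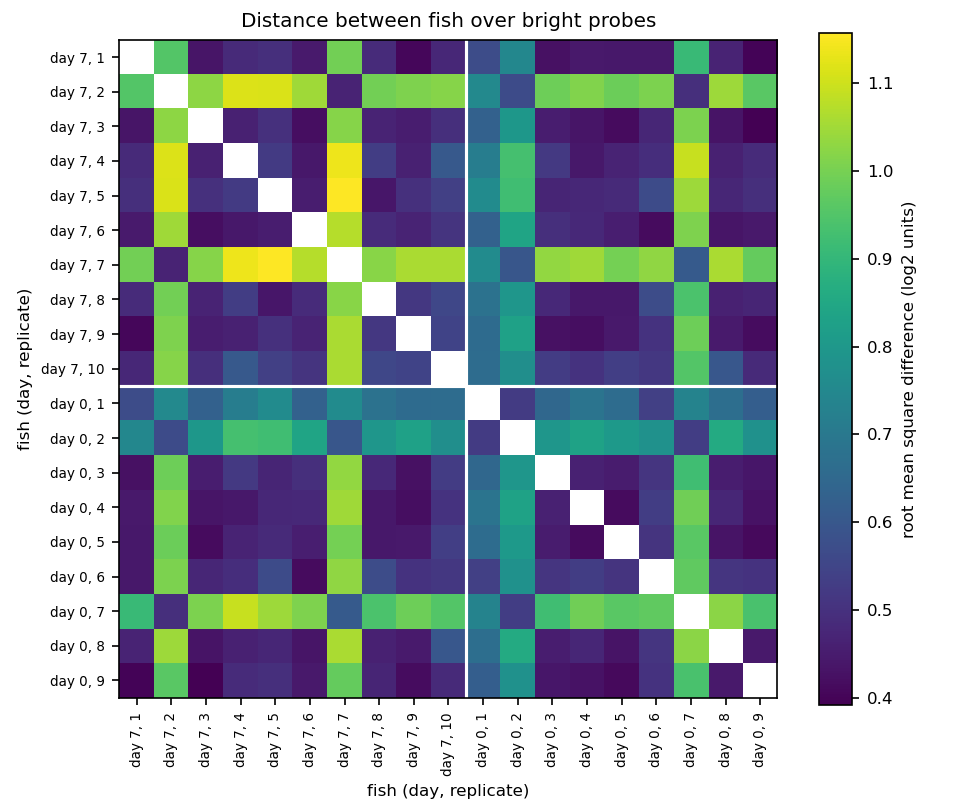
Distance between each pair of the 19 fish over the bright probes, as a grid with the fish of day 7 before those of day 0 on both axes; colour gives the root mean square difference in log2 units. Distances run from 0.392 to 1.16, and the rows of replicates 2 and 7 of each day are far from most other fish of both days.

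Tanks and slides were taken into account in turn. The test of a difference between tanks in the day 7 minus day 0 contrast called 0 probes (0%) in limma, and 1175 were below 0.05 before adjustment (2.69%). With tank as a term limma called 0 probes and 1274 had an unadjusted p under 0.05. Tank 1 alone gave 0 and 1225, tank 2 alone 0 and 1165, and slide as a block 0 and 1398. These counts are out of 43627 probes, and none reaches a share of 0.05. Because all fish of a day came from 2 tanks, p-values that count each fish as independent leave out any effect of the tank itself.

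Set beside the earlier days, which were compared with the same day 0 fish and so are not independent of this comparison, day 7 was not the furthest from day 0. The median absolute difference of bright probes from day 0 was 0.0852, 0.0866, 0.110, 0.118 and 0.0862 log2 units on days 1, 2, 3, 5 and 7. Bright probes estimated more than 1.5-fold higher numbered 58, 46, 189, 113 and 45, and those more than 1.5-fold lower 14, 14, 34, 169 and 16. The median SD between fish was 0.338, 0.367, 0.294, 0.353 and 0.372. These differences between days were not tested.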

How the data were processed

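Each fish had 1 two-colour array, and days, tanks and replicate numbers were taken from the sample titles. Per the file headers, the authors deposited background-corrected median intensity values of every spot in both channels. How the background was corrected, with which scanner software, and what the flag codes stand for is not stated in those headers or the labels. The authors also deposited a value table of log2 ratios of the same arrays. Over 14678 probes above 100 in both channels, the best match of all 19 columns was the array of the same fish (correlation 0.960 to 0.996, against at most 0.836 with any other). Its column medians ran from -0.0110 to 0.0138. Its within-array normalization is not given in the sources used, and which channel is the fish was taken from the dyes in the labels. Log ratios of 2 of the 19 arrays correlated from -0.383 to 0.605 over all probes.

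Of 45220 spots, 1531 absent from the value table and 62 probes with flag code 1 were left out. Signals below 0 were set to 0, 50 was added to both channels, and log2(Cy5/Cy3) was normalised by loess within arrays. The offset understates differences of dim probes. limma 3.58.1 (R 4.3.3; lmFit, eBayes) was run on 59 arrays with a mean per day, and with Benjamini-Hochberg adjustment over all probes. 1 array titled day 1 with tank 0 entered no group, as no such tank belongs to the design. Spread was tested by fitting absolute deviations from day means in limma, and single values by exact permutation (Python 3.11.15). Both fits were run on residuals of the real arrays with shuffled labels and known changes put in. Only large changes were used, none of them below 2-fold for the means. Recovery of smaller changes was not tested in either fit, so a count of 0 is no sign of equal means or of equal spread. Replicate numbers recur on both days. Of 9 pairs with the same number 8 correlated above 0.1 in their deviations and 1 did not (range -0.0395 to 0.719). Their mean correlation was 0.392, against -0.0148 for fish of different numbers (range -0.604 to 0.810). Deviations from a day mean sum to 0 within the day, which holds the mean over pairs close to 0. The -0.0148 is therefore no benchmark. Fish of one number also came from the same tank on both days, and pairs of the same number were not compared with other pairs within a tank. Replicates 2 and 7 of both days are also the arrays that stood apart. The main fit did not take the numbers as pairs, so it leaves out any structure they share. A replicate block was run as an alternative.

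Probes were named by rule: as fewer than 5 passed the test, the 8 bright probes with the largest difference in each direction, the 3 brightest, the 3 with the largest and the 3 with the smallest ratio of SDs (SDs above 0.1), and the 4 dim probes with the largest difference. The smallest-p probes were added after their values were seen. Members, rules, the arrays that stood apart and alternatives were chosen with earlier results of these data known. Alternatives covered the offset, normalization, the authors' table, the brightness rule, arrays in the fit, tank, slide, position, replicate block, moderation, array weights, the Wilcoxon test and single fish. Lists of gene names gave no result because probes are named by position.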

Additional observations from a re-analysis of the deposited data

Results flagged for a closer look

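In 74 sets of values (each named probe on each day, and array signals), 6 fish lay further from the rest of their day than Dixon's 95% limit allows, where chance would give about 3.7. On C118R004, replicate 9 of day 0 was at -3.77 with the next day 0 fish at -0.04. On C182R023, replicate 2 of day 0 was at -0.41 with the next at -0.16. On C238R117, replicate 8 of day 0 was at -2.60 with the next at 0.03. On C263R064, replicate 1 of day 0 was at -7.72 with the next at -0.25. In these cases the pool channel read 3165 for C238R117 and 13068.5 for C263R064. On C109R052, replicate 7 of day 0 was at -0.37 with the next at -0.03. Replicate 4 of day 7 had a median Cy5 signal of 55.5, and the next day 7 array had 71. Some of these probes were picked for their difference or unequal spread, which such values produce.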

How the results depend on the processing

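The comparison of means called 0 probes in the main setting and in all 36 alternatives run, with adjusted p never below 0.0603. Before adjustment 1128 to 1715 of 43627 probes were below 0.05 where all probes were tested, and 194 where only the 16473 bright probes were fitted. Leaving out each of the 19 fish gave 1128 to 1525 such probes, of which 154 to 411 were bright. Array quality weights gave 378 of the 16473 bright probes at an unadjusted p under 0.05. With the replicate block limma called 0 probes and counted 1336 at an unadjusted p under 0.05, 271 of them bright; 3 of 9 day 0 fish correlated best with the day 7 fish of their own number. Of 43627 probes, the test of spread called 5 without the offset and 6 in the authors' deposited table, against 0 in the main setting. Of the 6, looked up after their values were seen, C233R036, C027R075, C068R098 and C199R160 are dim and had larger SDs on day 7, C228R002 is dim and had a larger SD on day 0, and C192R015 is bright (SD 0.457 on day 7 and 0.0803 on day 0 with the offset). On day 7 the fish channel of C027R075 ran from 31.5 to 82.5, and its SD was 2.92 without the offset and 0.602 with it. For C199R160 the channel ran from 30.5 to 116.5, and the SDs were 2.26 and 0.577. Without the offset, signals under 1 were set to 1 in both channels. How much of these SDs lies in the pool channel was not tested, so they are no measure of spread in the fish channel. Deviations from the day median gave 1262 of 43627 probes at an unadjusted p under 0.05, 452 of them bright. The difference in within-day distance became -0.0285 without the 4 arrays, with replicate 1 of day 0 kept. Of the named probes, C084R001 became -0.25 and C206R082 0.42 in tank 1 only, C182R023 became 0.0494, C255R007 0.0462 and C200R057 0.0454 in tank 2 only, and C255R007 became 0.0131 under median centring and ran from -0.103 to 0.0200 with single fish left out, the highest without replicate 7 of day 0. The other 872 differences, over 26 probes named for their difference, signal or p, kept their direction and call. Most of these probes were picked for their values on the same arrays, so a kept direction is descriptive. Of the 6 probes named for their spread, only the differences without the 4 arrays were set beside the main ones here: C198R003 became -0.13, C254R161 0.21 and C093R157 0.03, against 0.10, -0.05 and -0.10 with all arrays, and the other 3 kept their sign. The cause of these changes was not tested. Signal limits dim probes, whose ratios the offset shrinks.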
